A study of Mus musculus with 18 samples.

Results

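Hormone genes of the anterior pituitary gland were examined in RNA of the mouse hypothalamus, the brain region that lies directly above the gland and controls it. The 7 genes are a fixed list of names: Gh (growth hormone), Prl (prolactin), Cga (the alpha subunit shared by the glycoprotein hormones), Tshb, Lhb and Fshb (the beta subunits of thyrotropin, luteinizing hormone and follicle-stimulating hormone) and Pou1f1 (a transcription factor of the pituitary cell lineages that make growth hormone, prolactin and thyrotropin). All 7 were found among the 23904 gene names that occur in the transcript tables of hypothalamus, gonadal adipose and liver. A gene's level is its FPKM (fragments scaled by transcript length and by the mapped fragments of the library), summed over its transcript models in a column. The study sequenced 18 samples of male C57BL/6 offspring aged 3 weeks, 6 from each tissue. In each tissue 3 samples carry the treatment label BPA (bisphenol A, an estrogenic plastics chemical) and 3 the label corn oil. Dams were gavaged daily from day 1 to day 20 after conception, with BPA at 5 mg/kg in corn oil or with corn oil alone. Pups came from 3 vehicle litters and 4 BPA litters. The 6 expression columns of a tissue are headed by the tissue and a number that occurs in no label. Columns were therefore grouped by tissue, treatments were not compared, and each tissue's columns mix both treatments.

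Pituitary hormones are made in specialised endocrine cells. Cga protein pairs with Tshb in thyrotropes and with Lhb or Fshb in gonadotropes, so a complete glycoprotein hormone needs RNA of both subunits. Pou1f1 acts directly on the Gh, Prl and Tshb genes. The hypothalamus is not a site of these endocrine cells, but the pars tuberalis, a thin sheet of pituitary tissue that makes Cga and Tshb, lies against its underside and can stay attached in a dissection.

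The start regions of 3 members are shown because they carry the contrast described below: Cga was the only one of the 7 with a median of at least 1 FPKM in hypothalamus, a level reached by 48.2% of all gene names, whereas Prl and its regulator Pou1f1 were listed at 0. Each sequence runs 5′ to 3′ on the strand of its gene, from 250 bases before to 50 bases after the RefSeq start (build GRCm38.p6, which corresponds to mm10). Capitals mark the core of the element bound by Pou1f1 (TATNCAT, searched on both strands) and the TATA box (TATAAA, searched on the strand of the gene). Cga lies at chr4:34893529-34893828 (+ strand), Prl at chr13:27057320-27057619 (+ strand) and Pou1f1 at chr16:65520262-65520561 (+ strand).
Cga: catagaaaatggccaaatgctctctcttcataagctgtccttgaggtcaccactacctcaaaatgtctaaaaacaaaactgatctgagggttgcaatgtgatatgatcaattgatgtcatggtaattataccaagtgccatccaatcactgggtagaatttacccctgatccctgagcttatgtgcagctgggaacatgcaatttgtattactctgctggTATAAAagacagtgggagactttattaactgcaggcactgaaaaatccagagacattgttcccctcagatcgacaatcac
Prl: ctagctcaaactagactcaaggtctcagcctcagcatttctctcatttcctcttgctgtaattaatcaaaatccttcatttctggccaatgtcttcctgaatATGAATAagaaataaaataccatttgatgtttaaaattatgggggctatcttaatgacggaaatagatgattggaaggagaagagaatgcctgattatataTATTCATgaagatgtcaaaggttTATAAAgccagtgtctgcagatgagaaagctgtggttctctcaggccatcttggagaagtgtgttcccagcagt
Pou1f1: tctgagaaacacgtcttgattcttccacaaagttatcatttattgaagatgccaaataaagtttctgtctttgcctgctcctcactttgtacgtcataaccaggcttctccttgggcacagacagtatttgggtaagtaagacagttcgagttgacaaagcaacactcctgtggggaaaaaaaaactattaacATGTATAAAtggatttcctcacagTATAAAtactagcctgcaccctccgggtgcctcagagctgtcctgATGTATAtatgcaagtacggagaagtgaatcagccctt
The Prl window held 2 matches to TATNCAT, at bases -148 to -142 and -47 to -41 from the start. The Pou1f1 window shown also held 2, the first of which, at -57 to -51, overlaps a TATAAA match. No match was found in the windows of Cga, Tshb, Lhb or Fshb, or in a second Pou1f1 window at chr16:65523059-65523358. The windows of Lhb (chr7:45420696-45420995) and Tshb (chr3:102782665-102782964) do not cover the starts of their RefSeq gene spans, at 45417608 and 102789082. At least 1 match was present in 8.84% of 32817 RefSeq promoter windows of this length, and at least 2 in 1.51%. TATAAA occurred in at least 1 window of all 6 members that the RefSeq table covers, though not in the second Pou1f1 window, and in 8.32% of all windows. Gh is named only.

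In hypothalamus, 4 of the 7 genes, Gh, Prl, Fshb and Pou1f1, were listed at 0 in every column, as were 34.8% of all gene names. They were also at 0 in every adipose and liver column, as 24.3% of gene names were. Both hormones with a single protein chain were thus at 0 in all 18 columns, together with the factor that acts on their genes. An entry of 0 in these tables cannot be read as absence of RNA. Eef1a1, a translation factor used by every cell, was listed at 0 in every hypothalamus and liver column and in 5 of 6 adipose columns, and Gapdh, a glycolytic enzyme, in 1 hypothalamus, 6 adipose and 2 liver columns. Actb, Hprt, Tbp and Ppia, which are in equally general use, were above 0 in all columns. The depth behind each column is unknown, and no limit of detection can be given.

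Gh (chromosome 11, 106300261 to 106301896, - strand) and Fshb (chromosome 2, 107056141 to 107059651, - strand) each had 1 transcript model in every tissue. Pou1f1 (chromosome 16, 65520629 to 65533981, + strand) also had 1, and Prl (chromosome 13, 27057570 to 27065203, + strand) had 2 of the same span. These spans are on mm10 as deposited. Prl belongs to a large mouse family whose other members are placental hormones. All 6 relatives examined, Prl2a1, Prl2c2, Prl3b1, Prl3d1, Prl7d1 and Prl8a2, were likewise listed at 0 in all 18 columns.

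**Figure D1:**
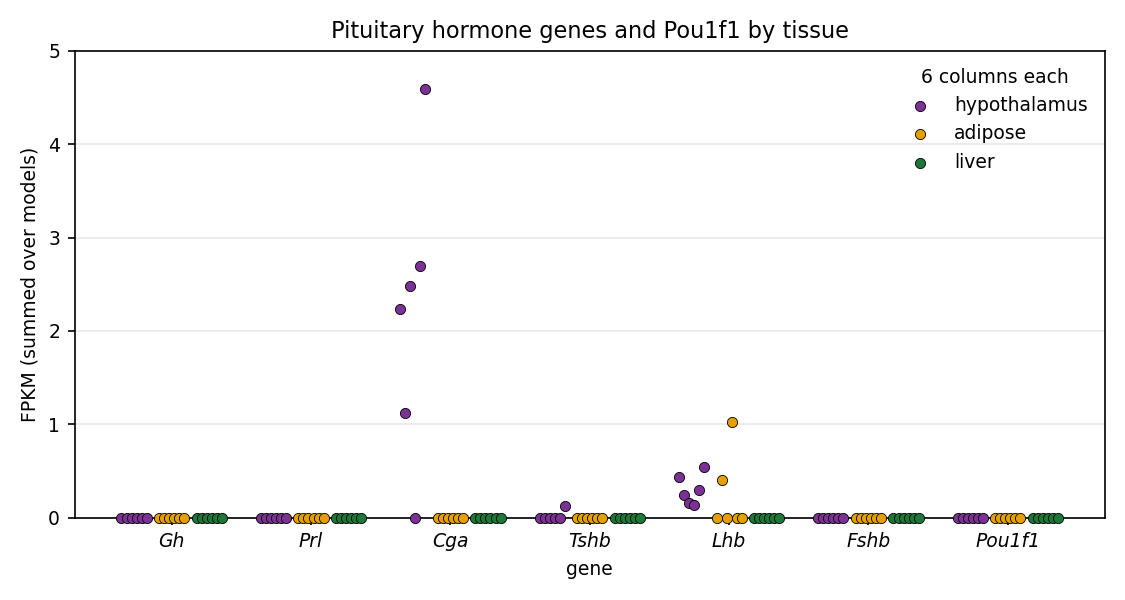
FPKM of the 7 genes (vertical axis, linear, summed over models) in the 6 columns of each tissue, with 1 point per column. Cga stands above 1 FPKM in 5 of 6 hypothalamus columns, Lhb stays at or below 0.539 FPKM there, and the points of Gh, Prl, Fshb and Pou1f1 lie on the zero line in all tissues.

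Cga (chromosome 4, 34893779 to 34907374, + strand) was the member with the highest level. Its FPKM in hypothalamus was 2.23 in column 03, 1.12 in column 13, 2.49 in column 15, 0 in column 25, 2.70 in column 28 and 4.59 in column 42, with a median of 2.36. Column 42 was highest and column 25 was the only one at 0, and all 12 columns of adipose and liver were listed at 0. The hypothalamus columns therefore overlapped the other tissues through column 25 alone. A level above 0 in at least 5 hypothalamus columns with 0 in every adipose and liver column was shown by 5.2% of all gene names. Of the 10646 genes above 1 FPKM in the other 5 hypothalamus columns, Cga among them, 12 were at 0 in column 25.

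Cga had 1 model in each tissue, which ends 4 bases beyond the GENCODE gene and equals the RefSeq span. The main annotated transcript has 4 exons of 687 bases in all. GENCODE places the noncoding gene Platr9 on the opposite strand, sharing 1247 bases with Cga. In the deposited tables the model on that strand, named 2410114N07Rik, shared 0 bases with Cga and was listed at 0 in all columns. No source used here says whether reads were counted by strand.

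The beta subunits that pair with Cga were low or at 0. Tshb (chromosome 3, 102777398 to 102782714, - strand), which makes thyrotropin together with Cga, had 3 models of the same span. It was at 0 in 5 hypothalamus columns and at 0.127 FPKM in column 42, the column in which Cga was highest. All of that value lay in 1 of the 3 models, and adipose and liver were at 0. Fshb was at 0 throughout.

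Lhb, the beta subunit of luteinizing hormone, was the only member above 0 in every hypothalamus column. Its FPKM was 0.440, 0.243, 0.159, 0.137, 0.300 and 0.539 in columns 03, 13, 15, 25, 28 and 42. Column 25 was again lowest and column 42 highest. In adipose it was 0.409 in column 10 and 1.02 in column 25, and 0 in the other 4, so the adipose range contained the hypothalamus range. In liver it was 0 in all columns. Of the 7 members, Lhb alone had every hypothalamus column above every liver column, as 35.3% of all gene names did. None of the 7 had every hypothalamus column above every adipose column, against 28.2% of all gene names.

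The Lhb values come mostly from models that begin before the gene's GENCODE start at position 45420820 of chromosome 7. In hypothalamus the model present in all 6 columns ran from 45420574 to 45421888, starting 246 bases upstream. The model that lies inside the GENCODE gene, from 45420946 to 45421854, was above 0 only in column 42, at 0.242 FPKM. Both adipose values came from a model that started 2469 bases upstream. A model with no gene name on the same strand, from 45418366 to 45420120, was above 0 in 4 hypothalamus columns, at up to 0.354 FPKM, and is not part of the Lhb values. The RefSeq gene of the same build starts earlier, at 45417608, and holds that adipose model up to its last 3 bases. In GENCODE the last 138 bases of Lhb overlap Ruvbl2, a chromatin remodelling ATPase read from the opposite strand. Ruvbl2 stood at 12.1 to 13.5 FPKM in the hypothalamus columns. Reads from the shared bases cannot be assigned to a gene unless strand was used, so the Lhb levels are uncertain.

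**Figure D2:**
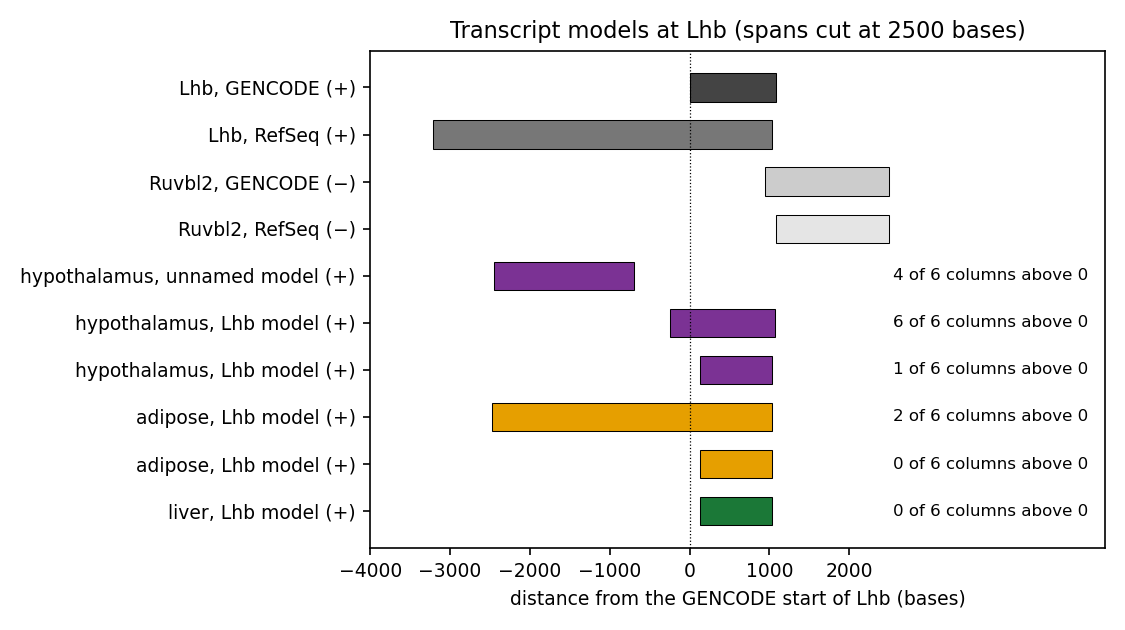
Spans of the annotated genes and of the deposited models at Lhb, drawn to scale as distance in bases from the GENCODE start of Lhb, with the number of columns above 0 beside each model and strands in parentheses and the longer Ruvbl2 gene cut at the right. The model within the GENCODE gene was above 0 in 1 of 6 hypothalamus columns, whereas models reaching upstream held the other values.

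Levels were compared between tissues by limma on log2(FPKM + 1), over genes above 1 FPKM in at least 6 of the 18 columns and with Benjamini-Hochberg adjustment over all genes tested. A gene was called at an adjusted p under 0.05 and a difference of at least 2-fold. The 3 tables come from separate assemblies, and levels set side by side across them rest on the authors' FPKM scale alone. The median difference over all genes was 0.62 on the log2 scale for hypothalamus over adipose and 0.94 over liver. No member passed the filter on low values: Cga exceeded 1 FPKM in 5 columns. Accordingly 0 of 7 were tested or called, while 32.8% of the 12766 genes tested were called higher in hypothalamus than in both other tissues. Without the filter, Cga alone among the 7 was called higher than in both, against 18.4% of all gene names (21.3% were called higher than in adipose and 27% than in liver). Its limma adjusted p was 2.01e-04 against adipose and 1.80e-04 against liver, and 5 of 6 hypothalamus columns were above every column of the other tissues. No fold is given, because those tissues are listed at 0. With each hypothalamus column left out in turn the adjusted p stayed between 5.04e-08 and 6.91e-04. Lhb was not called in either comparison (limma adjusted p = 0.631 against adipose and 0.0464 against liver, where its difference was under 2-fold), and Tshb was not called either (0.355 and 0.382). All 12 adipose and liver entries of Cga are 0 and have no spread. The fit pools the spread over all tissues, so these entries make it smaller than that of the hypothalamus columns. The adjusted p-values of Cga, also those with a column left out, rest on this lowered spread and overstate the certainty.

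Cga, Lhb and Tshb were the members with any variation in hypothalamus, which gave 3 pairs. Over the 6 columns, log2(FPKM + 1) of Cga and Lhb had a Pearson r of 0.72 (exact permutation p = 0.106, two-sided; adjusted p = 0.578 over the 15584 genes correlated with Cga) and a Spearman rho of 0.71 (exact permutation p = 0.136). Without columns 25 and 42, the farthest from the Cga median, r was 0.10 over the remaining 4 columns, so the relation rests on those columns. Tshb was above 0 in a single column. Its Pearson r was 0.57 with Cga (exact permutation p = 0.333; adjusted p = 0.719) and 0.70 with Lhb (exact permutation p = 0.167; adjusted p = 0.763), and its rho was 0.65 with each (exact permutation p = 0.333 for both). No value is left without column 42, where Tshb is at 0 throughout. With Tshb above 0 in 1 column, its exact permutation p cannot fall below 0.167, so its pairs cannot decide on covariation. For Cga and Lhb, covariation was not detectable beyond the spread of 6 columns.

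Markers of other pituitary cells were at 0 in part. Of 14 transcription factors and receptors of the anterior lobe, 8 were listed at 0 in every hypothalamus column, against 34.8% of all gene names. These included Lhx3, needed for the gland to form, Ghrhr, the growth hormone-releasing hormone receptor of somatotropes, and Gnrhr, the receptor by which gonadotropes sense gonadotropin-releasing hormone. The summed level of the list ran from 6.15 FPKM in column 25 to 12.4 in column 42. Among the genes with a median of at least 1 FPKM were Trhr (1.22 to 2.50 FPKM), Gata2 (1.17 to 1.71) and Nr5a1 (0.518 to 1.90). These 3 are also known from brain neurons, Nr5a1 from the ventromedial hypothalamus. Of 3 genes of the list that were tested, 2 were called higher than in adipose and 3 than in liver, against 38.3% and 48.4% of all genes tested. Pitx1, a factor found throughout the pituitary, reached at most 0.230 FPKM, in column 42, and was 0 in columns 03 and 25.

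The intermediate lobe makes melanocyte-stimulating hormone from Pomc. Its defining factors Pax7 and Tbx19, with Oacyl, were at 0 in every column of all tissues. Pomc itself, which arcuate neurons of the hypothalamus also express, was at 3.75 to 14.9 FPKM. Pcsk2, a peptide-processing enzyme of neurons and endocrine cells alike, was at 40.9 to 66.7 FPKM. Both of these were called higher than in adipose and liver, as were 32.8% of all genes tested. No other gene of the list was tested. Pcsk2 carried the summed level of the list, which was highest in column 25. The pars tuberalis list holds Cga and Tshb with 3 other genes. Its melatonin receptor Mtnr1a was at 0 in 4 hypothalamus columns and reached 0.164 FPKM. In liver Mtnr1a was at 0.514 to 1.03 FPKM, above every hypothalamus column, and in adipose it was listed at 0. Eya3, a coactivator used in many tissues, was at 3.23 to 4.52 FPKM and was not called. The summed level of the 5 genes, Cga included, ran from 3.23 FPKM in column 25 to 9.44 in column 42. Of 3 genes listed for pituicytes, the glia of the posterior lobe, all were above 0 in every hypothalamus column. Rax, which tanycytes of the hypothalamus also express, was at 0.103 to 0.702 FPKM, Scn7a at 0.502 to 1.77 and Col25a1 at 11.3 to 13.7. Col25a1 was called higher than in both other tissues, and Scn7a higher than in liver. Rax was not tested. Of all genes tested, 38.3% were called higher than in adipose and 48.4% than in liver. Scn7a had a median of 4.41 FPKM in adipose against 1.49 in hypothalamus and was not called against adipose. When columns were scaled to a common median, its call against liver was lost and it was called lower than in adipose. In bulk tissue, fewer cells of a type and less RNA per cell cannot be told apart.

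All 7 genes of the hypothalamic releasing and inhibiting hormones were above 0 in every hypothalamus column, and the 5 that were tested were all called higher than in adipose and in liver, against 38.3% and 48.4% of all genes tested. Sst (somatostatin, which restrains growth hormone) was at 118 to 177 FPKM and Trh (thyrotropin-releasing hormone) at 36.8 to 57.9. Th, the enzyme of the dopamine neurons that restrain prolactin, ranged from 1.79 to 28.9 FPKM. Ghrh (growth hormone-releasing hormone) was at 3.22 to 8.17. Gnrh1, which drives the gonadotropins, was at 0.685 to 2.18 FPKM, Crh at 1.60 to 3.43 and Kiss1 at 0.581 to 1.05. Apart from Sst and Trh, the levels of all these genes overlapped that of Cga. Their levels cannot be compared with those of the hormones as amounts of peptide.

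The receptors through which the hormones act were found mainly outside the hypothalamus. Ghr, the growth hormone receptor, was at 62.3 to 130.5 FPKM in adipose, 64.4 to 81.2 in liver and 2.74 to 4.59 in hypothalamus, with no overlap between hypothalamus and either other tissue. The limma difference on the log2(FPKM + 1) scale was -4.35 (SE 0.15, adjusted p = 6.52e-15) for hypothalamus minus adipose and -3.93 (SE 0.15, adjusted p = 2.25e-14) for hypothalamus minus liver. Prlr, the prolactin receptor, was at 13.3 to 30.6 FPKM in liver against 1.03 to 2.68 in hypothalamus (log2 difference -3.03, SE 0.25, limma adjusted p = 2.17e-09). It was not called against adipose, at 1.82 to 6.57 FPKM, but was called lower than adipose when columns were scaled to a common median. Tshr, the thyrotropin receptor, was at 6.64 to 15.5 FPKM in adipose, while in hypothalamus it was above 0 only in column 42, at 0.215, and in liver it was listed at 0. Lhcgr and Fshr, the gonadotropin receptors, were at 0 in all 18 columns. Of the 3 receptors tested, 2 were called lower in hypothalamus than in adipose and 2 lower than in liver, against 13.1% of all genes tested in each comparison.

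**Figure D3:**
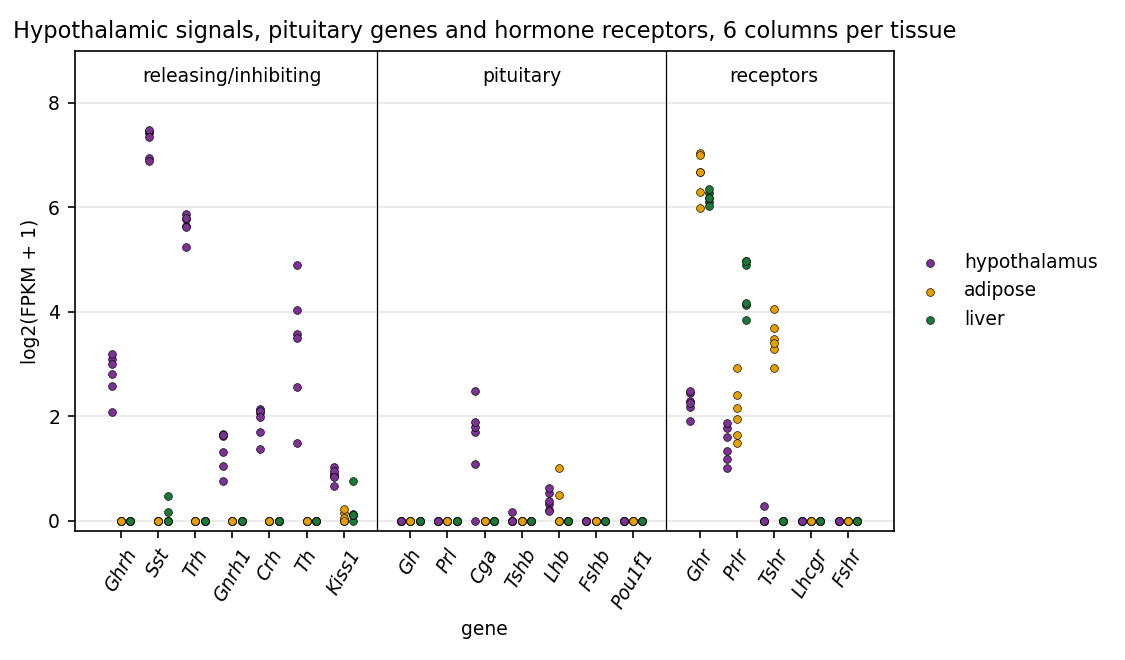
Level as log2(FPKM + 1) of 7 hypothalamic hormone signals, the 7 pituitary genes and 5 receptors, with 1 point per column and 6 columns per tissue. Hypothalamus points lead on the left, nearly all pituitary points lie at 0, and adipose and liver points lead for Ghr, with adipose for Tshr and liver for Prlr.

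The summed levels of hypothalamic neuron and thalamus marker genes also stood at their extremes in columns 25 and 42. Column 25, with Cga at 0, was the lowest column for all 8 genes of the hypothalamic neuron list, against 30.8% of the 11517 genes with a median of at least 1 FPKM in hypothalamus. The list was summed to 747 FPKM in column 25 and 1378 in column 42, and was 1014 to 1281 in the other 4. Its leading genes were Pmch at 284 to 540 FPKM, Avp at 176 to 365, Oxt at 168 to 274 and Hcrt at 101 to 212. Oxt and Hcrt were highest in column 42, but Pmch was highest in column 13 and Avp in column 28. The 4 thalamus markers, Tcf7l2, Prkcd, Rora and Lef1, were all highest in column 25, as 21.5% of those 11517 genes were, and summed to 156 FPKM there against 13.1 in column 42 and 26.5 to 71.6 in the others. Pomc was 3.75 FPKM in column 25 and 11.8 to 14.9 in the others. As a description over the same 6 columns, Pearson's r with Cga on the log2(FPKM + 1) scale was 0.91 for Pomc, 0.92 for Rax, a median of 0.81 for the hypothalamic neuron genes and a median of -0.77 for the thalamus markers. Pcsk2, listed with Pomc, went the other way (r = -0.80, Spearman's rho = -0.83), as did Col25a1, listed with Rax (r = -0.56, rho = -0.66). For Scn7a, also listed with Rax, r was 0.34 and rho 0.49. Spearman's rho with Cga was 0.89 for Pomc and 0.94 for Rax. It ran from 0.14 to 0.94 over the hypothalamic neuron genes and from -0.66 to -0.60 over the thalamus markers. The part of these differences in the Cga values was not tested. Column 03 stood apart by Ttr, a choroid plexus and liver gene, at 646 FPKM against 2.17 to 9.08 in the other 5, and its Cga lay within their range. Of the other 4 choroid plexus genes, Kl (3.95 FPKM), Clic6 (4.08) and Kcnj13 (2.53) were also highest in column 03, and Folr1 was at 0 in every hypothalamus column. All 4 adipocyte markers were also at 0 in every hypothalamus column. Of the 4 hepatocyte genes Cyp7a1, a bile acid enzyme, was at 0, while Alb (22.4 to 60.3 FPKM) and Apoa1 (1.76 to 10.8 FPKM) were above 0 in every hypothalamus column and highest in column 42. Apoa1 had an r of 0.92 and a rho of 0.71 with Cga over the 6 columns, and the part of this in the Cga values was not tested.

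**Figure D4:**
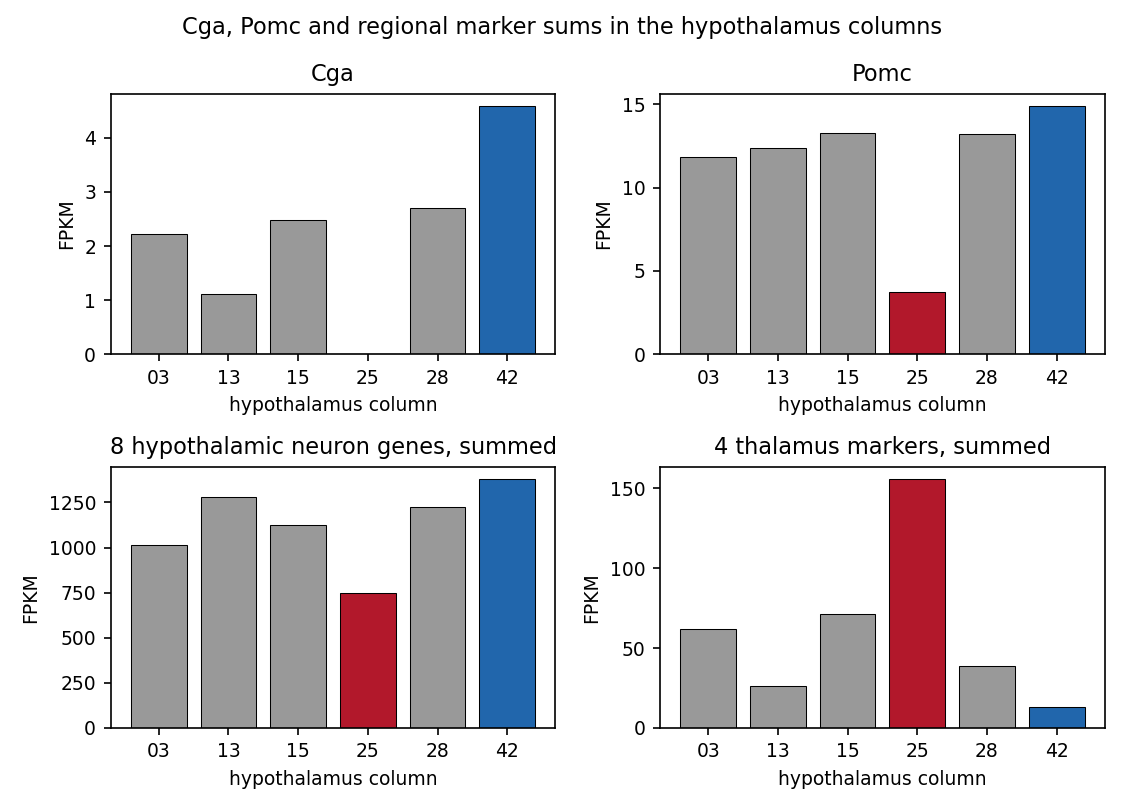
FPKM in each of the 6 hypothalamus columns for Cga, Pomc, the sum of 8 hypothalamic neuron genes and the sum of 4 thalamus markers, with bars from 0. Column 25 is drawn in red and column 42 in blue: Cga is 0 and the thalamus sum 156 in column 25, while Cga is 4.59 and the thalamus sum 13.1 in column 42.

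Genes whose pattern over the 6 hypothalamus columns was most like that of Cga were sought among 1354 genes with a median of at least 1 FPKM and a range of at least 1 on the log2(FPKM + 1) scale. The nearest by Pearson r included Fam178a (0.99), Mum1l1 (0.97), Gripap1 (0.97), Ccnt1 (0.96), Ces1d (0.96), Chgb (0.95), Numa1 (0.95), Gpr50 (0.95) and H2-Q2 (0.94). An r of at least 0.9 was reached by 39 of the 1354, or 2.88%, and the lowest permutation p adjusted over all 15584 genes was 0.486. Chgb, a secretory granule protein, was at 12.5 FPKM in column 25 and 52.3 to 92.2 in the other 5. Gpr50, an orphan relative of the melatonin receptors, was at 0.976 FPKM in column 25 and 2.56 to 3.82 in the others. The same search for Tshb, which is above 0 only in column 42, returned genes that stand out in that column, led by Manba (r = 0.999), Fcho1 (0.99) and Serpina3k (0.99), followed by Rps15a-ps6, Larp4b, Serpina1e, S100a13, Ndn, Prnp and Pbx4. No such search was possible for Gh, which has no variation.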

How the data were processed

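RNA was poly-A selected and sequenced on an Illumina HiSeq, per the labels' protocols. HISAT 0.1.6 and StringTie 1.0.4 on mm10 are named in the submitters' processing notes; the annotation, any scaling between libraries and the use of strand are not given in the sources used here. The deposited FPKM values come as a transcript and a gene table per tissue, each with 6 columns headed by a tissue and a number. FPKM was summed over a gene's named models per column; 9 to 13 cells per tissue that hold dates or times, none in a gene described here, were treated as missing. The lowest values above 0 (from 9.4e-05 FPKM) show no step of 1 read, so reads could not be recovered and the depth per sample is unknown. Summed FPKM per column was 160673 to 316741.

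Tissues were compared with limma 3.58.1 in R 4.3.3 (trend) on log2(FPKM + 1), tested on simulated data; p-values measure only the spread between these columns, which the labels do not tie to litters. Correlations were tested over all 720 orders of 6 columns. Alternatives changed the pseudocount (0.1), the filter, the scaling, the table and the columns used. Named genes were all 7 members, at most 4 genes per list by hypothalamus median, and the 10 most like Tshb (the same was planned for Gh, which does not vary); the search around Cga, and the other list genes named, were chosen after values were seen. The members and lists were chosen with earlier results of these data known. Values of some listed genes are not reported here.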

Additional observations from a re-analysis of the deposited data

Results flagged for a closer look

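A single value among the 6 columns of a tissue lay far from the rest in 14 of 71 gene and tissue groups examined, where chance alone flags about 1 in 20. That rate does not hold for genes at 0 in most columns: a gene above 0 in a single column stands apart by construction. This was the case in hypothalamus column 42 for the member Tshb, at 0.127 FPKM, and for the thyrotropin receptor Tshr, at 0.215 FPKM. In hypothalamus column 25, Pomc was low at 3.75 FPKM (others 11.8 to 14.9) and so was Trhr at 1.22 (2.07 to 2.50). In hypothalamus column 03, Ttr was high at 646 FPKM (2.17 to 9.08) and Kl at 3.95 (0.577 to 1.43).

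Liver column 15 was high for 5 hypothalamic peptides: Pmch at 1.52 FPKM (others up to 0.167), Avp at 1.02 (up to 0.184), Hcrt at 0.781 (up to 0.0938), Oxt at 0.605 (up to 0.170) and Sst at 0.381 (up to 0.127). All 7 members were listed at 0 in that column. In adipose column 25, which had the highest adipose Lhb, Clic6 was high at 6.83 FPKM (up to 2.52) and Kl at 1.73 (up to 0.548). Alb was low in liver column 28, at 1112 FPKM against 30775 to 41280 in the others.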

How the results depend on the processing

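Without the filter on low values, 1 member, Cga, was called above both other tissues; under the other alternatives 0 were, since none passed the filter. The number of members at 0 in every hypothalamus column was 4 to 5 with a column left out (an alternative chosen after seeing the data), 5 without column 42. Scaling columns to a common median changed the share of calls that were higher in hypothalamus from 74.5% to 58.4% against adipose and from 78.7% to 64.2% against liver; 3371 and 4403 genes were then called higher and 2402 and 2458 lower, against 4885, 6176, 1674 and 1672 as deposited. All counts over genes stayed within 1.5 times. With a column left out they were 4862 to 4905 and 1657 to 1678 against adipose, and 6120 to 6186 and 1673 to 1685 against liver. With the heading number as a replicate block the counts were 4885 and 1568 against adipose and 6169 and 1675 against liver. The adipose fit used only the 4 heading numbers that hypothalamus and adipose share. Same-numbered columns deviated together little or not at all (correlations of -0.029 to 0.038), so the paired fit is given only here. Hypothalamus columns 03 and 15 did correlate best with the adipose column of their own number, at 0.034 and 0.038. The Cga and Lhb correlation was 0.67 to 0.72 with another pseudocount, scaling or table, but 0.10 without the 2 columns farthest from the median. Unknown depth limits every value near 0.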
